A study of Mus musculus with 6 samples.

Results

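Hearts of 2 transgenic mouse lines were taken as 1 group of 4 arrays and set against 2 arrays of control hearts, which are all 6 arrays of the series. The question was which transcripts moved the same way in both lines, including moderate changes that neither line could show alone with 2 arrays against 2. ATF6α-cn mice carried the αMHC-tTA driver together with a transgene for the transcriptionally active N-terminus of mouse ATF6α, and ATF6β-cn mice carried the same driver together with the N-terminus of mouse ATF6β, while control mice carried αMHC-tTA alone. All mice were 8 weeks old and had been without doxycycline (DOX), which silences the transgenes, for 4 weeks. Both the driver and the transgenes use the α-myosin heavy chain promoter, so that expression is directed to cardiac myocytes, whereas the RNA came from whole flash-frozen ventricles of C57BL/6 background mice. The transgenes were not expressed equally, as the study states. The 4 transgenic arrays are 2 replicates of each of 2 genotypes and not 4 replicates of 1.

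The values were log2 signals from Affymetrix Clariom S mouse arrays, 1 per transcript cluster, which is the array's unit for a gene. After 6640 control probe sets were left out, 22206 transcript clusters were compared. Array medians ran from 5.58 to 5.64 on the log2 scale, and background was set at 5.21, below which 95% of 1410 genes for olfactory or vomeronasal receptors lay. The arrays correlated at 0.990 to 0.991 within a group, at 0.986 to 0.988 between the lines and at 0.984 to 0.988 between transgenic and control arrays. Heart muscle markers were among the brightest signals, with Myh6 between 19.67 and 19.71 on all 4 transgenic arrays, against 19.71 and 19.67 on the control arrays. These values lie near the top of the array's scale, where a rise could hardly show. Over 5222 negative control probe sets the median log2 signal was 5.46 and 5.48 on the ATF6α-cn arrays and 5.45 and 5.44 on the ATF6β-cn arrays, against 5.08 and 5.02 on the control arrays. That shift of 0.41 runs with the comparison itself. The separation of positive from negative control probe sets, as an area under the curve, was lower on all 4 transgenic arrays. It was 0.82 and 0.81 on the ATF6α-cn arrays and 0.83 and 0.82 on the ATF6β-cn arrays, against 0.85 and 0.85 on the control arrays. The part of either difference in the results below was not tested.

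ATF6α and ATF6β are membrane proteins of the endoplasmic reticulum (ER). When unfolded protein builds up they move to the Golgi, where proteases release the N-terminus, which enters the nucleus and binds DNA together with NF-Y. Their known targets are ER chaperones, folding enzymes and parts of ER-associated degradation (ERAD), the route by which misfolded proteins leave the ER for the proteasome. The best known binding site is the ER stress response element (ERSE), in which an NF-Y site and an ATF6 site lie a fixed distance apart.

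The genes of the transgenes themselves were checked first. Atf6b had a log2 signal of 8.65 and 9.18 in ATF6α-cn hearts and of 14.80 and 14.80 in ATF6β-cn hearts, against 8.72 and 8.63 in control hearts, and so was high only where its transgene was. The Atf6 signal was 12.70 and 13.07 in ATF6α-cn hearts and 12.25 and 11.94 in ATF6β-cn hearts, against 13.09 and 13.04 in control hearts. No rise of Atf6 was therefore seen on the array in the line that carries it. By qPCR, another measure, the study reported more Atf6 message in ATF6α-cn hearts and more Atf6b message in ATF6β-cn hearts. Where on the message its probes lie was not stated, and a probe set outside the part that the transgene encodes would not read it.

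With both lines pooled, 13 clusters rose and none fell at an adjusted p under 0.05 (limma, 4 against 2 arrays, p adjusted over all clusters), which is 0.0585% up and 0% down. At an unadjusted p under 0.05 there were 1088 clusters up and 1244 down. The smallest adjusted p of any cluster lower in transgenic hearts was 0.064. All 13 rises lay on all 4 transgenic arrays above both control arrays, a pattern that 9.34% of all clusters had by any amount, and 11.4% lay below both. The log2 fold changes ran from 1.54 to 5.93, or 2.91-fold to 61.1-fold.

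Of the 13, 6 were on the list of ER chaperones and cochaperones described below (Sdf2l1, Hyou1, Creld2, Dnajc3, Dnajb11 and Calr), 1 on that of protein disulfide isomerases (Pdia6) and 1 on that of phospholipid and ether lipid synthesis (Far1). Nde1 and Ints3 were on none. The other 3 clusters are shared by Manf and Rbm15b, by Pdia4 and Mir704 and by Akr1b3 and Gm6644. A cluster shared by 2 genes cannot be assigned to either.

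The promoters shown are those of called genes in which the letters of a known ATF6 site were found. RefSeq promoters (GRCm38.p6, from upstream of the start site to just past it) were found for 10 of the 13, each cluster being looked up by its first symbol. The ERSE letters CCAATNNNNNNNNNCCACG were found on either strand in 4 of those 10, in Creld2, Dnajc3, Calr and Pdia6. Among all 16349 measured genes with a promoter 0.171% held them. The related ERSE-II letters, ATTGG, any base and CCACG, which share the CCACG part, were found in Dnajb11, in 1 of the 10, and in 0.055% of all. A match is a description of the sequence and no evidence of binding. The matches stand in capitals, 5′ to 3′ on the strand of the gene, so that the match of Creld2 and of Calr, which lies on the opposite strand, reads CGTGG first.
Creld2, chr15:88819396-88819695, plus strand: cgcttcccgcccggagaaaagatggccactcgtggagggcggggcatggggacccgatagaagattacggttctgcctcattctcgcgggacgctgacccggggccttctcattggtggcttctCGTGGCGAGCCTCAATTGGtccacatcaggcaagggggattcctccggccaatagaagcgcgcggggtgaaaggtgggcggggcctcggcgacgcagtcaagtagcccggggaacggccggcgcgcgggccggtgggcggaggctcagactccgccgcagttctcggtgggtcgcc
Dnajc3, chr14:118937682-118937981, plus strand: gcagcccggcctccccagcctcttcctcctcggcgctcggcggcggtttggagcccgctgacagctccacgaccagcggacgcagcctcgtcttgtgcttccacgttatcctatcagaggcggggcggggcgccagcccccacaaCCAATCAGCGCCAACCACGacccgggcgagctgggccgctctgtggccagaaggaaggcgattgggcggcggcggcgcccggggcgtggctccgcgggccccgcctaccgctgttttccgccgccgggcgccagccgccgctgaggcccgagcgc
Dnajb11, chr16:22857595-22857894, plus strand: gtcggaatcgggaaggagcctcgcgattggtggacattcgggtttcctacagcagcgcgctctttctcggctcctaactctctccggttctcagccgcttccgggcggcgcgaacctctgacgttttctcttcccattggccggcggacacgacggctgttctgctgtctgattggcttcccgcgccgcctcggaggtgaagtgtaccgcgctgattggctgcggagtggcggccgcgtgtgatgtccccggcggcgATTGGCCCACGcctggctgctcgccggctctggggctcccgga
Calr, chr8:84846882-84847181, minus strand: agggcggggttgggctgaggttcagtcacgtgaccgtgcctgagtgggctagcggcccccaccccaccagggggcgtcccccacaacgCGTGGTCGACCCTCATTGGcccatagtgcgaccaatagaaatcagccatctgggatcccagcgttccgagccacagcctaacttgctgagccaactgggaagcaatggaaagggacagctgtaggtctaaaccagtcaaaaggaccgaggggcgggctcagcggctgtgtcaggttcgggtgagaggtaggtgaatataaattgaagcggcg
Pdia6, chr12:17266339-17266638, plus strand: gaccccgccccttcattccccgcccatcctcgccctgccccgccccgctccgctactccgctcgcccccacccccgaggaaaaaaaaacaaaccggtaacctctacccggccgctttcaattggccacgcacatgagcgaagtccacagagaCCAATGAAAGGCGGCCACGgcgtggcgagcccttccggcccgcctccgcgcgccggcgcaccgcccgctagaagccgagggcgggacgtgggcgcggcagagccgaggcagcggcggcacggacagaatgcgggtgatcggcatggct
The first base of the match lay at −126 in Creld2, −105 in Dnajc3, −162 in Calr and −98 in Pdia6 relative to the start site, and at 8 in Dnajb11.

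The rise of Sdf2l1 was the largest by size. This partner of the ER chaperone Dnajb11 had log2 signals of 12.88 and 11.89 in ATF6α-cn hearts and 14.66 and 14.27 in ATF6β-cn hearts, against 7.35 and 7.63 in control hearts. Its log2 fold change was 5.93 (standard error 0.65, adjusted p = 0.0127). All 4 transgenic hearts stood far above the controls, and both ATF6β-cn hearts stood above both ATF6α-cn hearts. The cluster of Pdia4, a protein disulfide isomerase, and Mir704 had the opposite order, with 15.25 and 14.65 in ATF6α-cn and 13.27 and 13.38 in ATF6β-cn, against 9.69 and 9.67 in control hearts, and a log2 fold change of 4.46 (standard error 0.51, adjusted p = 0.0155).

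The smallest adjusted p values belonged to genes that the lines shared evenly. The pooled fit favours such genes, since it counts a difference between the lines as spread. Far1 makes the fatty alcohols that go into ether lipids. It had 13.17 and 13.19 in ATF6α-cn hearts and 13.38 and 13.50 in ATF6β-cn hearts, against 9.27 and 8.84 in control hearts, a log2 fold change of 4.26 (standard error 0.21, adjusted p = 4.78e-05). The cluster of Manf, a secreted ER stress protein, and Rbm15b had 15.98, 15.28, 15.63 and 15.57 on the transgenic arrays, against 10.80 and 10.80 on the control arrays, with a log2 fold change of 4.82 and the same adjusted p. Hyou1, an exchange factor for the ER chaperone BiP, had 14.77, 14.10, 14.23 and 14.03 in transgenic hearts, against 10.40 and 10.25 in control hearts. Its log2 fold change was 3.95 (adjusted p = 2.3e-04). In all 3 the arrays of the lines lay together, several log2 units above the controls.

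**Figure D1:**
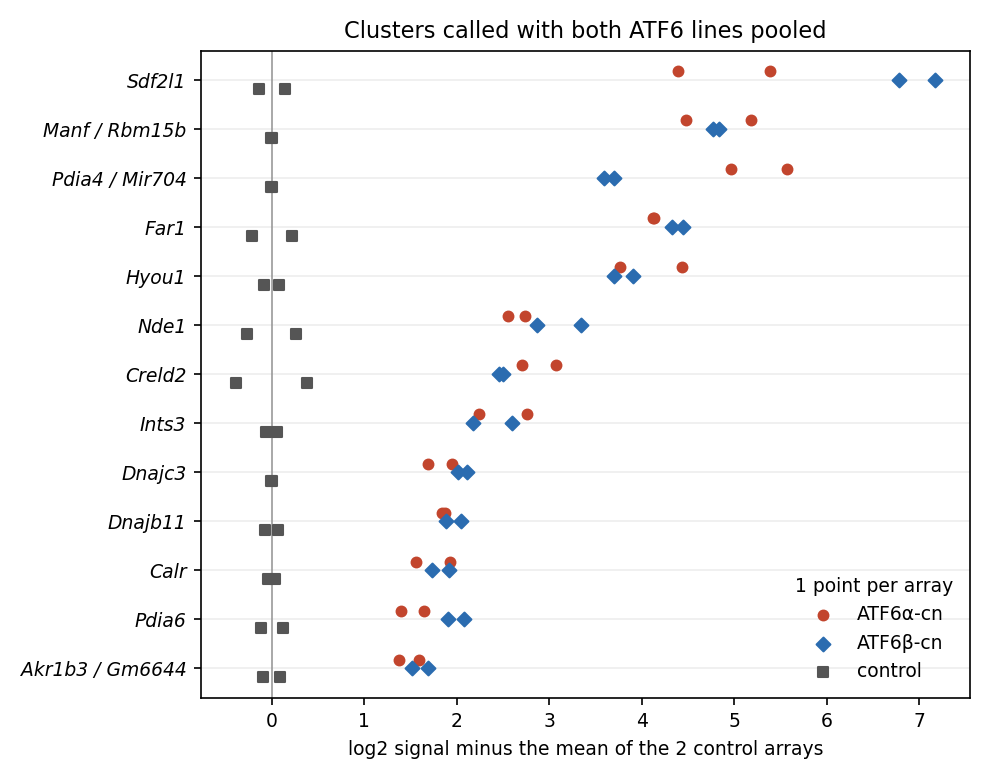
Log2 signal of the 13 clusters called with both lines pooled, each array as a point relative to the mean of the 2 control arrays (x axis), with ATF6α-cn, ATF6β-cn and control arrays marked by colour and shape and clusters ordered by log2 fold change. All transgenic points lie to the right of the control points, and the lines are apart in Sdf2l1, higher in ATF6β-cn, and in the cluster of Pdia4, higher in ATF6α-cn.

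Creld2, an ER stress gene with thioredoxin-like motifs, was higher by 2.69 on the log2 scale (adjusted p = 0.00744). Dnajc3, a J-domain cochaperone of BiP that also restrains PERK, had 12.79 and 12.53 in ATF6α-cn hearts and 12.85 and 12.94 in ATF6β-cn hearts, against 10.83 and 10.84 in control hearts. Dnajb11, another J-domain cochaperone of BiP, had 9.57, 9.54, 9.58 and 9.74 in transgenic hearts, against 7.76 and 7.62 in control hearts. Both rose by a little under 2 on the log2 scale, 1.94 and 1.92. Calr, the calcium-binding lectin chaperone calreticulin, rose by 1.78 (adjusted p = 0.0127) and stood at 17.00 to 17.36 in transgenic hearts, against 15.48 and 15.40 in control hearts. Pdia6, a protein disulfide isomerase, was the call closest to the threshold (log2 fold change 1.76, adjusted p = 0.0446).

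Nde1, a dynein regulator, had 10.52 and 10.71 in ATF6α-cn hearts and 10.83 and 11.31 in ATF6β-cn hearts, against 7.70 and 8.23 in control hearts (log2 fold change 2.88, adjusted p = 0.00516). Ints3, a subunit of the Integrator complex that processes small nuclear RNAs, rose by 2.45 with the same adjusted p, and its transgenic arrays spanned 10.20 to 10.78, against 8.08 and 7.97 in control hearts. The cluster of Akr1b3, the aldose reductase, and Gm6644 rose by 1.54 (adjusted p = 0.0268). In each of the 3, no transgenic array came near a control array.

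Of the 13, 11 were also called in each line alone by the fit with 1 mean per group, and 2, Pdia6 and the cluster of Akr1b3, in ATF6β-cn alone. That fit called 21 clusters up and none down in ATF6α-cn (0.0946% and 0%) and 176 up and 68 down in ATF6β-cn (0.793% and 0.306%). The lines share the control arrays, so their calls are not independent. None of the 13 differed between the lines at an adjusted p under 0.05 (limma), although the 95% interval of the difference left out 0 for 2. Calls of the pooled fit favour clusters on which the lines agree, so this is a description of the 13 only. Sdf2l1 was higher in ATF6β-cn by 2.08 (95% interval 1.32 to 2.84, adjusted p = 0.0584) and for Pdia4 with Mir704 the difference was −1.63 (95% interval −2.20 to −1.05, adjusted p = 0.0514). For Hyou1 the difference was −0.30 with an interval of −0.91 to 0.31, and for Manf with Rbm15b it was −0.03 with an interval of −0.63 to 0.57.

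Another 6 genes were called in each line but not with both lines pooled, where a difference between the lines counts as spread. Why each missed the pooled call was not tested. Hspa5, which encodes BiP, the main chaperone of the ER lumen, had 19.03 and 18.73 in ATF6α-cn hearts and 18.54 and 18.54 in ATF6β-cn hearts, against 17.25 and 17.08 in control hearts. Its log2 fold change was 1.55 with an adjusted p of 0.0528, just outside the threshold, a place it shared with Nans, sialic acid synthase, which was called in ATF6β-cn alone (1.93, adjusted p = 0.0528). Sel1l, a scaffold of the ERAD ubiquitin ligase, followed with 12.75 and 12.65 in ATF6α-cn, 12.00 and 12.02 in ATF6β-cn, and 9.92 and 10.60 in control hearts (log2 fold change 2.10, adjusted p = 0.056). The others were Appl1, an endosomal adaptor, at 1.67, Hsp90b1, the ER form of HSP90, at 2.14, Fkbp7, a prolyl isomerase of the ER, at 2.55, and Derl3, an ERAD channel protein, at 4.21. Derl3 had the widest gap between the lines, with 7.02 and 7.27 in ATF6β-cn hearts and 11.31 and 10.89 in ATF6α-cn hearts, against 4.96 and 4.86 in control hearts, and ATF6β-cn minus ATF6α-cn was −3.95 (adjusted p = 2.72e-04).

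The pooled calls rested on both control arrays. Without control replicate 1 there were 5 clusters up and without control replicate 2 there were 3, and Far1, Hyou1 and the cluster of Manf were the 3 that passed whichever array was left out. A model with 1 mean per line called 83 clusters up and 6 down. That model tests the mean of both lines' changes, so a large change in 1 line alone can pass. A robust fit with a variance trend called 36 and 1, and Student's t-test with Benjamini-Hochberg adjustment called 0 and 0.

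No cluster was called with both lines pooled while called in neither line, either up or down. The pooling therefore added no change at this threshold that the lines had not shown alone. The clusters nearest to it that neither line called were Gm6307, a predicted gene, and Map3k3, a kinase upstream of MAP kinases. Gm6307 had 8.37 and 9.28 in ATF6α-cn hearts and 8.94 and 8.47 in ATF6β-cn hearts, against 7.15 and 6.54 in control hearts (log2 fold change 1.92, adjusted p = 0.0703). Map3k3 was even, with 8.99, 8.97, 9.0 and 8.96 on the transgenic arrays, against 7.98 and 7.50 on the control arrays (log2 fold change 1.24, adjusted p = 0.0811). Under the model with 1 mean per line Gm6307 passed (adjusted p = 0.0456) as the 1 cluster of the kind, and with the line as a random block 7 passed up, Gm6307 and Map3k3 among them, and 1 down, Ipo13, an importin. Without ATF6β-cn replicate 2, Calr, Dnajc3 and Dnajb11 became calls that neither line made.

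On the side of the falls, the smallest adjusted p belonged to Cth and 1110004E09Rik. Cth, cystathionine gamma-lyase of cysteine synthesis, had 6.06 and 5.39 in ATF6α-cn hearts and 6.12 and 5.89 in ATF6β-cn hearts, against 7.57 and 7.44 in control hearts (log2 fold change −1.64, adjusted p = 0.064). The signals of 1110004E09Rik were 7.60 to 7.88 in transgenic hearts, against 8.87 and 8.99 in control hearts (log2 fold change −1.23, adjusted p = 0.0693). Both lay on all 4 transgenic arrays below both control arrays, and ATF6β-cn alone called them. With 1 mean per line they passed.

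**Figure D2:**
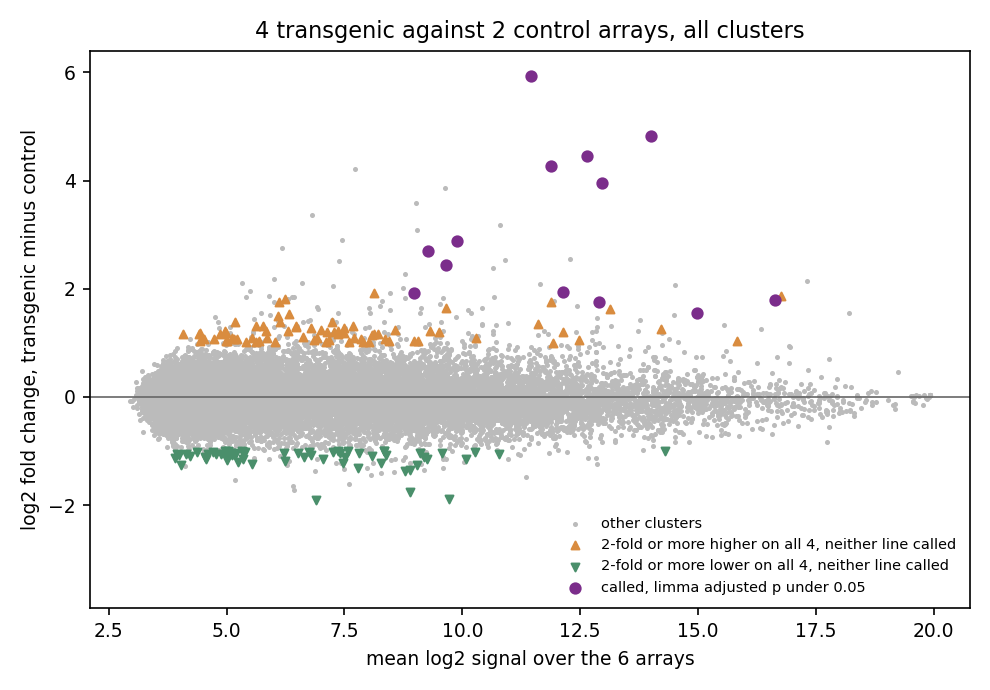
Log2 fold change of each of the 22206 clusters, transgenic minus control (y axis), against its mean log2 signal over the 6 arrays (x axis). The 13 called clusters lie between 1.54 and 5.93, and clusters with a change of at least 2-fold on all 4 arrays that neither line called are marked by triangles, 74 higher and 60 lower.

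Since no cluster met the rule, the moderate common changes were described by their size alone. This class was defined after the values were seen and carries no test. It holds the clusters with a log2 fold change of at least 1 with both lines pooled, all 4 transgenic arrays on 1 side of both control arrays, and a call in neither line. There were 74 such clusters higher in transgenic hearts and 60 lower. Their median log2 fold changes were 1.16 and −1.07, and their adjusted p values ran from 0.0703 to 0.563 for the higher and from 0.102 to 0.44 for the lower clusters. Of the 74, 48 had a mean above background in both transgenic and control hearts, and of the 60, 34. None of the 134 differed between the lines at an adjusted p under 0.05 (limma), while the 95% interval of the difference left out 0 in 6 of the 74 and in 6 of the 60. Over all 22206 clusters, 60 differed at that threshold and 2140 had such an interval. The rule of the class leaves out clusters that 1 line called, so it favours lines that lie close and is no test of their agreement.

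Among the higher ones were genes known from heart stress. Nppa, which encodes atrial natriuretic peptide, had 16.89 and 18.49 in ATF6α-cn hearts and 16.91 and 17.25 in ATF6β-cn hearts, against 15.52 and 15.51 in control hearts, a log2 fold change of 1.87 (adjusted p = 0.203). Rcan1, a calcineurin inhibitor that calcineurin itself induces, had 11.77 and 13.36 in ATF6α-cn and 11.26 and 11.79 in ATF6β-cn, against 10.65 and 10.74 in control hearts. In both, ATF6α-cn replicate 2 was the highest array, and the other 3 transgenic arrays lay closer to the controls. Nr4a1, an immediate early nuclear receptor, and Cdkn1a, the cell cycle inhibitor p21, had the same top array, at 8.65 and 10.17. Cdkn1a stood at 7.33 on ATF6α-cn replicate 1 and at 7.48 and 7.50 on the ATF6β-cn arrays, against 7.11 and 6.50 on the control arrays, and its log2 fold change of 1.32 was 0.64 without ATF6α-cn replicate 2.

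Tfg, Serpinh1 and Kdelr3, picked out here for their known roles in the ER and its traffic after their values were seen, were also higher. Tfg, which organises ER exit sites, had 12.58 and 12.46 in ATF6α-cn hearts and 12.61 and 12.27 in ATF6β-cn hearts, against 11.44 and 9.995 in control hearts. The transgenic arrays were tight and the control arrays far apart, and its log2 fold change of 1.76 was 1.04 without control replicate 2. Serpinh1, the collagen chaperone of the ER, was higher by 1.04 on the log2 scale (adjusted p = 0.203). Kdelr3, a receptor that returns ER proteins from the Golgi, had 6.45 and 7.41 in ATF6α-cn hearts and 8.03 and 7.27 in ATF6β-cn hearts, against 6.11 and 6.28 in control hearts.

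Other genes among the 15 largest were Mt2, a metallothionein, with 13.07, 14.60, 13.06 and 14.002 on the transgenic arrays, against 11.58 and 12.54 on the control arrays, and Stox2, with 9.55 to 10.59, against 9.0 and 8.09. Several started at or near background in control hearts, where the size of a fold is uncertain. Cyp26b1, which breaks down retinoic acid, reached 9.76 on ATF6β-cn replicate 2 but lay between 5.47 and 6.29 on the other transgenic arrays, against 5.21 and 4.85 in control hearts, and its log2 fold change of 1.80 was 0.83 without that array. Ccdc134, Shisa6, Gm5553, Slc6a2, the noradrenaline transporter, and Mgst2, a microsomal glutathione transferase, had control means between 4.25 and 5.22. Phxr4, the remaining gene of the 15, was higher by 1.32 on the log2 scale.

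**Figure D3:**
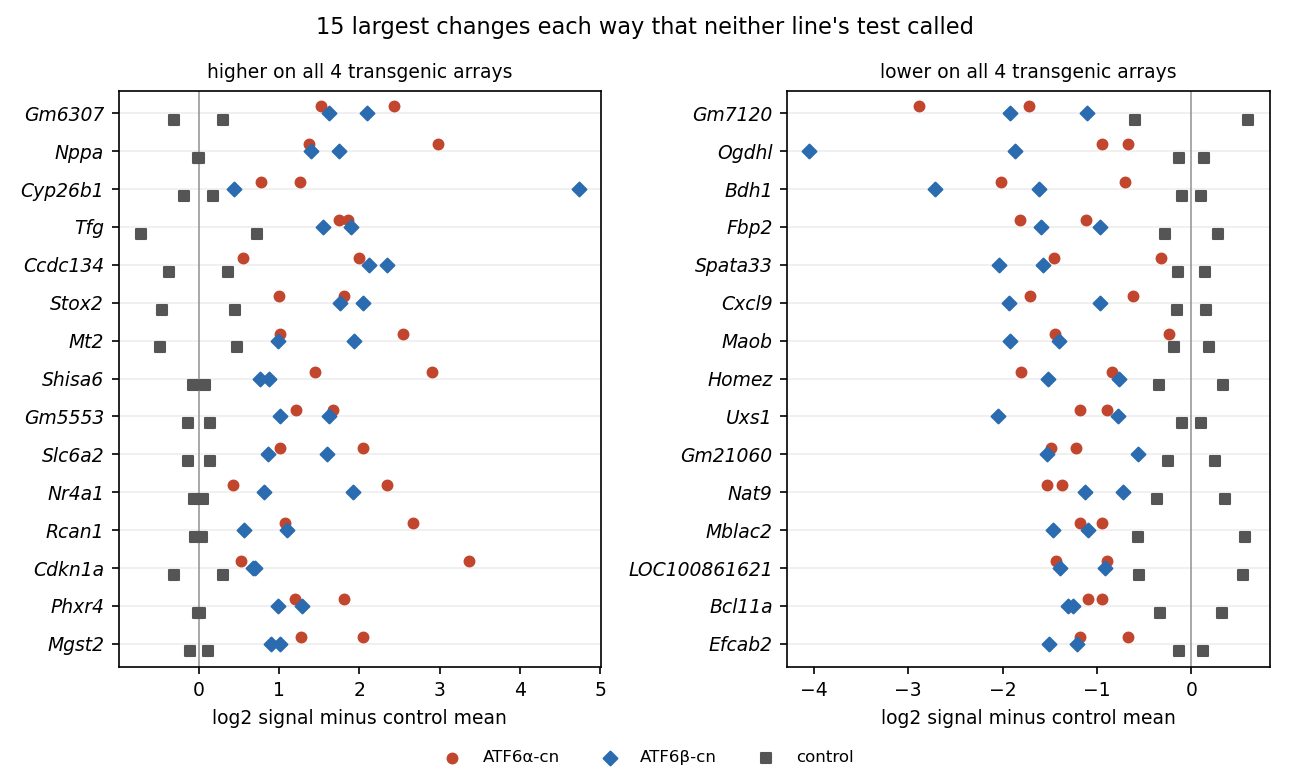
Log2 signal relative to the mean of the 2 control arrays (x axis) for the 15 largest common changes in each direction that neither line called, 1 point per array, for genes with 1 symbol and a mean above background in the higher group. On the left all transgenic points lie above and on the right all lie below the control points, and single arrays stand out in Cyp26b1 and Cdkn1a on the left and in Ogdhl on the right.

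On the lower side several of the 15 largest are enzymes of mitochondrial or sugar metabolism. Bdh1, which oxidises the ketone body 3-hydroxybutyrate, had 8.05 and 9.36 in ATF6α-cn hearts and 7.35 and 8.46 in ATF6β-cn hearts, against 9.96 and 10.17 in control hearts (log2 fold change −1.76, adjusted p = 0.269). Ogdhl, a homologue of the oxoglutarate dehydrogenase of the TCA cycle, had 10.31 and 10.04 in ATF6α-cn and 9.11 and 6.94 in ATF6β-cn, against 10.85 and 11.12 in control hearts. Fbp2, the muscle form of fructose bisphosphatase, had 8.59, 7.89, 8.11 and 8.74, against 9.42 and 9.99. The arrays of Fbp2 were close together in both lines, while Ogdhl was lower in ATF6β-cn, with a difference of −2.15 for ATF6β-cn minus ATF6α-cn (95% interval −3.45 to −0.85, adjusted p = 0.236). The log2 fold change of Ogdhl was −1.89, and −1.17 without ATF6β-cn replicate 2.

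Maob, the monoamine oxidase of the outer mitochondrial membrane, was at −1.25 on the log2 scale, with ATF6α-cn replicate 1 at 9.64 close under the lower control array at 9.70. Cxcl9, a chemokine induced by interferon gamma, had 6.95 and 8.04 in ATF6α-cn hearts and 7.69 and 6.73 in ATF6β-cn hearts, against 8.82 and 8.51 in control hearts. Uxs1, which makes UDP-xylose for proteoglycans, was at −1.23 and Efcab2 at −1.14. The others were Gm7120 at −1.91, Spata33 at −1.35, Homez at −1.23, Gm21060 at −1.20, Nat9 at −1.19, Mblac2 at −1.17, LOC100861621 at −1.16 and Bcl11a, a transcriptional repressor, at −1.15. In Homez, Gm21060, Mblac2, LOC100861621 and Bcl11a the transgenic mean was below the background level. Mblac2 and LOC100861621 were both at −0.61 without control replicate 2.

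The promoters of this class were scanned for the same letters. A RefSeq promoter was found for 52 of 71 higher genes and for 43 of 55 lower genes with 1 symbol. Neither ERSE nor ERSE-II letters were found in any of them. The letters TGACGTG, the core of a site that ATF6 binds in vitro, were found on either strand in 7 of the 52 (13.5%) and in none of the 43 (0%), against 2.59% of all measured genes with a promoter. The cyclic AMP response element TGACGTCA, which shares the letters TGACGT, was found in 2 of the 52 (3.85%) and in none of the 43, against 2.62% of all. Of the 10 promoters of called genes, none held either. The 7 genes were Vmn1r79, Kcnq1ot1, Timp1, A930033H14Rik, Kdelr3, Coro7 and Zfp948. Vmn1r79 is one of the vomeronasal receptors from which background was set. Timp1 had 5.30 and 4.61 in ATF6α-cn and 5.17 and 6.44 in ATF6β-cn hearts, against 4.47 and 3.915, below background, in control hearts. Kdelr3 and Timp1, an inhibitor of matrix metalloproteinases, are shown as members with a known role in ER traffic or the matrix, with TGACGTG, or CACGTCA where it lies on the opposite strand, in capitals.
Kdelr3, chr15:79516158-79516457, plus strand: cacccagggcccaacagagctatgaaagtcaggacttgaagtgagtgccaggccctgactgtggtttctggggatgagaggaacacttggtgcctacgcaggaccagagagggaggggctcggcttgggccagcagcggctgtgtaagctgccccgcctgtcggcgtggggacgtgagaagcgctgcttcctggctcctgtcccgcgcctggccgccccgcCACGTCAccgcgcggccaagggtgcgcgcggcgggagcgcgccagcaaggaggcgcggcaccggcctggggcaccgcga
Timp1, chrX:20869916-20870215, plus strand: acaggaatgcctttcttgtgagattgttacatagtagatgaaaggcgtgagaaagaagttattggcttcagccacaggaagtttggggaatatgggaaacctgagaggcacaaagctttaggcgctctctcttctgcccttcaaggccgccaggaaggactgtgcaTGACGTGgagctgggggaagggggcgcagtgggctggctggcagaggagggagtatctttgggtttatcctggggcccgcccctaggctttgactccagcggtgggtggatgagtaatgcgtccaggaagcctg
The class was chosen after the values were seen, and the share is a description.

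Gene lists gave a second view of the common changes. In the counts below a member is above or below where all 4 transgenic arrays lay on that side of both control arrays, by any amount, and the shares over all clusters are the 9.34% and 11.4% given above. In the 5552 brightest clusters, those with a mean log2 signal of at least 8.64, they were 11.5% above and 18.2% below. Many of the lists that follow hold bright genes, and that pair is the closer background for them. The median log2 fold change over all clusters was −0.02. Counts at an unadjusted p under 0.05 are to be read beside the 1088 up and 1244 down among all 22206 clusters. That count was not made for the bright clusters alone. Some members named below without a pooled call were called in ATF6β-cn alone by the fit with 1 mean per group. Among them are Pdia3, Erp29, Syvn1, Xbp1, Wfs1, Uggt1, Mrps35 and Dnaja3.

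Of 33 measured ER chaperones and cochaperones, 16 were above and 0 below (48.5% and 0%), with a median log2 fold change of 0.50, and 6 were called up with both lines pooled. The mean log2 signal of the list exceeded the control mean by 0.89 and 0.71 in ATF6α-cn hearts and by 1.24 and 1.23 in ATF6β-cn hearts. Beyond the calls, Dnajb9, a J-domain protein that takes substrates to ERAD, had 14.54 and 14.10 in ATF6α-cn and 16.20 and 15.95 in ATF6β-cn, against 13.10 and 13.17 in control hearts (log2 fold change 2.07, adjusted p = 0.269). Creld1 (0.66), Ppib, the ER cyclophilin (0.72), and Canx, calnexin (0.21), were above by less. Others of the family did not share this. Fkbp9, Cdnf, Hspa13 and Sdf2, the paralogue of Sdf2l1, had log2 fold changes between −0.18 and −0.06, and their arrays overlapped those of the controls.

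Of 22 protein disulfide isomerases and oxidases 5 were above and 2 below, with a median of 0.16. Pdia3, the isomerase that works with calnexin and calreticulin, had 13.28, 13.16, 13.23 and 13.53 in transgenic hearts, against 12.18 and 11.83 in control hearts (log2 fold change 1.29, adjusted p = 0.0764). P4hb, the founding member of the family, had 11.80 and 11.49 in ATF6α-cn hearts and 12.10 and 12.55 in ATF6β-cn hearts, against 10.83 and 10.84. Erp29 was higher by 1.42 and Pdia5 by 0.86 on the log2 scale.

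ERAD was split, with 10 of 34 measured members above and 6 below and a median of 0.02. Those above were led by Derl3 and Sel1l, and then by the membrane-anchored ubiquitin ligase Syvn1, with 7.96 and 7.20 in ATF6α-cn and 7.90 and 7.78 in ATF6β-cn, against 6.39 and 6.18 in control hearts (log2 fold change 1.43). Os9, a lectin that recognises misfolded glycoproteins, was higher by 1.35 and Herpud1, which links the ligase to its partners, by 1.33. Erlin1 led those below at −0.70, with 6.11 to 6.48 in transgenic hearts, against 7.25 and 6.85 in control hearts. None of the 34 was called with both lines pooled (limma), and at an unadjusted p under 0.05 there were 7 up and 2 down.

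Of 19 sensors and factors of the unfolded protein response 6 were above and 0 below, with a median of 0.33. Xbp1, the transcription factor whose message IRE1 splices, was even, with 13.26, 13.15, 13.23 and 13.34 in transgenic hearts, against 12.16 and 11.90 in control hearts (log2 fold change 1.21, adjusted p = 0.0693). Wfs1, an ER membrane protein, was higher by 0.95 and stood at 13.33 and 13.31 in ATF6β-cn but at 11.78 and 11.73 in ATF6α-cn, against 11.60 and 11.57 in control hearts. Eif2ak3, which encodes PERK, was higher by 0.61 and Creb3 by 0.60. Nfyc, a subunit of the NF-Y factor with which ATF6 binds, was higher by 0.41, whereas the other subunits Nfya and Nfyb were at −0.15 and −0.14 and overlapped the controls. This list holds Atf6 and Atf6b, and without Atf6b its mean exceeded that of the control arrays by 0.19 and 0.20 on the ATF6α-cn arrays and by 0.37 and 0.44 on those of ATF6β-cn.

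Further along the route, Uggt1, which tests the folding of glycoproteins, was higher by 1.78 on the log2 scale and lay above the controls on all 4 arrays, as did 6 of 39 members of its list of N-glycosylation genes, with 2 below. Of 30 genes of COPI and retrograde traffic 7 were above and 1 below, with a median of 0.12. Tmed2, a cargo receptor, was higher by 0.74, and the coat subunits Copz1 and Copa by 0.67 and 0.61. Genes of translocation into the ER had 3 of 38 above and 5 below, with a median of −0.03. None of these was called with both lines pooled (limma), and at an unadjusted p under 0.05 there were 2 up and 1 down of the 39, 5 up and 0 down of the 30 and 1 up and 3 down of the 38.

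**Figure D4:**
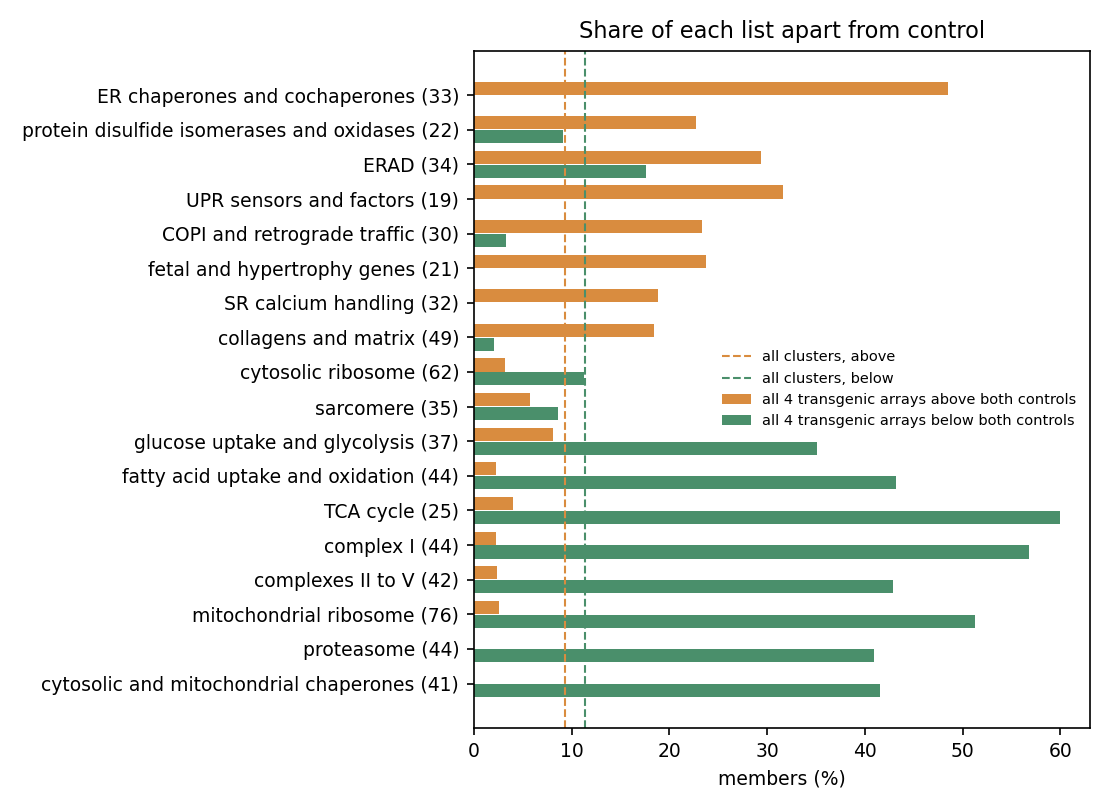
Share of the measured members of each gene list (number in brackets) with all 4 transgenic arrays above or below both control arrays (x axis, percent), with the shares over all clusters, 9.34% above and 11.4% below, as dashed lines. The share above exceeds the share below in the 5 lists at the top, from ER chaperones to COPI traffic, and the share below exceeds the share above in the 8 lists at the bottom, from glycolysis to the chaperones of cytosol and mitochondria.

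The lists of mitochondrial genes lay the other way. Of 76 measured proteins of the mitochondrial ribosome, which makes the proteins encoded by mitochondrial DNA, 39 were below and 2 above (51.3% and 2.63%), with a median log2 fold change of −0.38. The mean of the list differed from that of the control arrays by −0.33 and −0.26 for ATF6α-cn and by −0.40 and −0.52 for ATF6β-cn hearts, while the control arrays lay at 0.02 and −0.02. Mrps35 had 9.02 and 9.01 in ATF6α-cn and 8.36 and 8.63 in ATF6β-cn hearts, against 9.67 and 9.76 in control hearts (log2 fold change −0.96, adjusted p = 0.251). Mrpl38 was at −0.91, Mrpl22 at −0.90 and Mrpl4 at −0.84.

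None of the 76 was called with both lines pooled (limma). At an unadjusted p under 0.05, 29 were down and 0 up. The model with 1 mean per line called none of them either on the mean of the lines. In ATF6β-cn against control it called Mrps35 (limma, adjusted p = 0.0391). The negative control probe sets differed by 0.41 in the opposite direction on the same arrays, and their part here was not tested.

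Complex I of the respiratory chain had 25 of 44 measured subunits below and 1 above, with a median of −0.31. Ndufa9, an accessory subunit, had 15.62 and 15.54 in ATF6α-cn and 15.17 and 15.09 in ATF6β-cn hearts, against 16.29 and 15.74 in control hearts (log2 fold change −0.66, adjusted p = 0.405). Ndufs4 was at −0.60, and Ndufv3 was the subunit above, at 0.55. Complexes II to V had 18 of 42 below and 1 above, with a median of −0.20. Those below were led by Atp5e, a subunit of ATP synthase, at −0.75 and Sdha, the flavoprotein of succinate dehydrogenase, at −0.69. The 1 above was Cox7c, higher by 0.03 at the top of the array's scale.

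The TCA cycle list, which also holds ketone body enzymes, had 15 of 25 below and 1 above and a median of −0.28. Apart from Bdh1, Sucla2, a succinyl-CoA ligase subunit, was at −0.78, and Idh3a, a subunit of isocitrate dehydrogenase, had 16.61 and 16.42 in ATF6α-cn and 16.14 and 16.19 in ATF6β-cn hearts, against 16.86 and 17.21 in control hearts. Fatty acid uptake and oxidation had 19 of 44 below and 1 above, with a median of −0.26. The 1 above was Fabp3, higher by 0.03 at the top of the array's scale. Cpt2, the inner carnitine palmitoyltransferase, was even, with 12.42, 12.28, 12.41 and 12.27 in transgenic hearts, against 13.14 and 13.22 in control hearts (log2 fold change −0.84, adjusted p = 0.201). Acads, Hadh and Echs1, enzymes of beta-oxidation, lay between −0.69 and −0.68.

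In glucose uptake and glycolysis 13 of 37 were below and 3 above, with a median of −0.14. Slc2a1, the glucose transporter GLUT1, was at −0.78, while Gys1, the glycogen synthase of muscle, was at 0.76. Pdk3, a kinase that inhibits pyruvate dehydrogenase, had 6.16 and 5.79 in ATF6α-cn hearts and 9.72 and 10.09 in ATF6β-cn hearts, against 4.49 and 4.66 in control hearts, and was called in ATF6β-cn alone (log2 fold change with both lines pooled 3.36, adjusted p = 0.374). None of the members of these 5 lists was called with both lines pooled (limma). At an unadjusted p under 0.05, 8 of complex I, 5 of complexes II to V, 7 of the TCA cycle, 8 of fatty acid oxidation and 7 of glycolysis were lower, and 1 of complex I, 3 of glycolysis and 0 of the others were higher.

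Of 44 proteasome genes 18 were below and 0 above, with a median of −0.33, and 28 were below without control replicate 2. Psmd4, an ubiquitin receptor of the regulatory particle, had 10.32 and 10.13 in ATF6α-cn and 9.71 and 10.23 in ATF6β-cn hearts, against 11.10 and 10.68 in control hearts (log2 fold change −0.79, adjusted p = 0.345). Psmc5 was at −0.89 and Psma3 at −0.69. Of 41 chaperones of the cytosol and mitochondria 17 were below and 0 above, with a median of −0.25, the opposite side to that of the ER chaperones. Dnaja3, a J-domain protein of mitochondria, was at −1.08, and Hspd1 and Hspa9, the main folding machines of the mitochondrial matrix, were both at −0.74. Hspa9 had 14.11 and 14.57 in ATF6α-cn and 14.25 and 14.13 in ATF6β-cn hearts, against 14.91 and 15.11 in control hearts. Cytosolic ribosomal proteins, by contrast, had 7 of 62 below and 2 above, with a median of −0.06. Autophagy genes had 4 of 44 below and 5 above and lysosome genes 4 of 44 below and 2 above, with medians of 0.00 and −0.03.

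None of these lists had a member called with both lines pooled (limma). At an unadjusted p under 0.05 there were 14 proteasome genes, 10 chaperones and 0 ribosomal proteins down and none up, and 2 down and 3 up of the autophagy genes and 2 down and 2 up of the lysosome genes. In whole ventricles fewer cells of a type and less RNA per cell cannot be told apart.

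**Figure D5:**
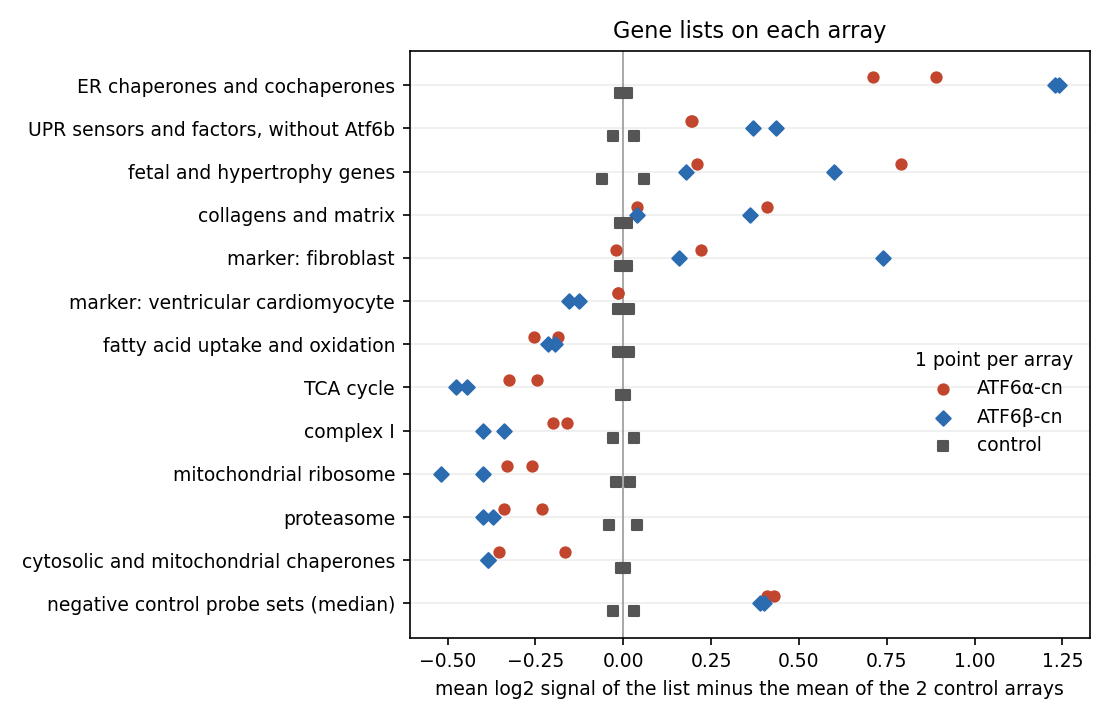
Mean log2 signal of 12 gene lists and the negative control probe sets (median) on each array, relative to the mean of the 2 control arrays (x axis). For the mitochondrial, proteasome and chaperone lists outside the ER all 4 transgenic points lie left of both control points, whereas the negative control probe sets lie to the right, by 0.41 on average.

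Markers of the cells that a ventricle holds were read beside these lists. Of 20 markers of ventricular cardiomyocytes 4 were above and 3 below, with a median of 0.00, and the 4 above were Atp2a2, Pln, Mb and Fabp3, all at the top of the array's scale and higher by only 0.03. Of 16 fibroblast markers 1 was above, Col1a2 with 9.33, 9.62, 9.15 and 9.72, against 8.68 and 8.62, and 0 below. Their median was 0.31, and the mean of the list was at −0.02 and 0.22 in ATF6α-cn and at 0.16 and 0.74 in ATF6β-cn hearts relative to control, so that ATF6β-cn replicate 2 stood apart. Of 21 endothelial markers 5 were above and 1 below (median 0.12), of 15 markers of smooth muscle and pericytes 2 and 1 (−0.08), of 27 of leukocytes 5 and 3 (0.05), and of 7 of blood cells 0 and 1 (−0.24). The lists of atrial cells (12 markers, 3 and 0), adipocytes (11, 1 and 1), mesothelium (9, 1 and 0) and nerve (11, 1 and 4) had medians from −0.11 to 0.06. No marker of these lists was called with both lines pooled (limma), and their part in the lists above was not tested.

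Genes of the fetal heart programme, which is switched on in hypertrophy, had 5 of 21 above and 0 below, with a median of 0.30. Besides Nppa and Rcan1 these were Timp1, Tnni1, the slow skeletal troponin I of the fetal heart, and Nfatc4. Tnni1 had 4.81 and 4.50 in ATF6α-cn and 4.25 and 5.74 in ATF6β-cn hearts, against 3.53 and 3.77 in control hearts, near or below background. The mean of this list was above control by 0.21 and 0.79 for ATF6α-cn and by 0.18 and 0.60 for ATF6β-cn hearts. Of 49 collagen and matrix genes 9 were above and 1 below, with a median of 0.23, and 16 were above without ATF6α-cn replicate 1 and 15 without control replicate 1. Col1a2 was higher by 0.80, Mmp14, a membrane-bound matrix metalloproteinase, by 0.86, and Lox, which crosslinks collagen, by 0.62. In both lists replicate 2 of each line was the higher array of its pair, and the fibroblast markers had the same order. At an unadjusted p under 0.05 there were 5 up and 0 down in the fetal list and 6 up and 1 down in the matrix list, and none was called (limma). Sarcomere genes had 2 of 35 above and 3 below, with a median of −0.01.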

How the data were processed

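The authors hybridised ventricular RNA of 6 mice, 2 per group, to Clariom S mouse arrays after biotin labelling with the GeneChip 3′ IVT Pico kit, and deposited log2 signals per probe set, 28846 in all. Affymetrix Expression Console is named in the submitters' processing notes, without a version. The deposited sheets also hold the authors' own fold changes and p-values of each line against control, which were not used.

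Without the 6640 control probe sets, 22206 transcript clusters were tested unfiltered, 836 of them with several gene symbols. Both lines were pooled into 1 group and set against control with limma 3.58.1 (R 4.3.3, lmFit and eBayes), and p-values were adjusted by Benjamini-Hochberg over all clusters. A fit with 1 mean per group gave the single lines and their difference. An exact permutation test of 4 arrays against 2 cannot give a two-sided p below 0.133, where that p is the doubled one-sided value. The tests therefore rest on a spread shared across clusters. The labels call the mice biological replicates, and p-values measure the spread between these samples only. The number of arrays limits the precision.

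For a gene with several clusters, the brightest was used in the lists. Promoters were taken from RefSeq (GRCm38.p6). Members and lists were chosen with earlier results of these data known. The genes named are the calls with 1 symbol, the 15 largest members of the common class in each direction, and list members on 1 side on all arrays. The class by size replaced an empty class, and it, the clusters with several symbols and the genes called in both lines but not pooled were chosen after the values were seen. Alternatives were 1 mean per line, the line as a random block, quantile normalization, median centring and a filter on dim clusters. Others were a variance trend with a robust fit, Student's t-test, a replicate block, a 2-fold minimum and each array left out.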

Additional observations from a re-analysis of the deposited data

Results flagged for a closer look

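Cdkn1a stood at 10.17 on ATF6α-cn replicate 2, far from the other 3 transgenic arrays at 7.33, 7.48 and 7.50, against 7.11 and 6.50 on the control arrays. It was picked out by Dixon's test among the 4 transgenic arrays, the only one of 48 genes examined, and chance picks out about 1 in 20 groups.

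Atf6b differed between the lines by 5.88 on the log2 scale, ATF6β-cn minus ATF6α-cn (limma, adjusted p = 4.1e-05). The gene is that of the ATF6β-cn transgene.

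The negative control probe sets, which enter no comparison, had a median that was 0.41 higher on transgenic arrays than on control arrays, 5.46 against 5.05 on average. This difference and the genotype cannot be told apart with these arrays.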

How the results depend on the processing

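The 13 rises with both lines pooled became 83 with 1 mean per line and 42 with the line as a random block. They became 36 with a variance trend and robust fit, 0 by Student's t-test, and 9 to 20 when 1 transgenic array was left out. The count of 0 falls became 6 with 1 mean per line, 5 with the random block and 1 with the trend. The 83 and 6 rest on the mean of both lines' changes, so a change in 1 line alone can be among them. Clusters called with both lines pooled but in neither line, 0 up and 0 down, became 1 up with 1 mean per line, 7 up and 1 down with the random block, and 0 to 3 up when 1 array was left out. The 60 differences between the lines became 38 after quantile normalization, 257 with the trend and 9 to 36 when 1 array was left out. The class of 2-fold common changes, chosen after seeing the data, held 43 higher and 38 lower clusters with the trend, 36 lower without dim clusters, and 128 to 280 higher and 83 to 268 lower when 1 array was left out, since fewer arrays then have to lie apart and fewer calls are made in the lines.

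Over all clusters, deviations of same-numbered arrays correlated at 0.009, 0.019 and −0.024, which shows no pairing by replicate number across the array as a whole. It does not speak to smaller sets of genes. In the immediate early genes and the collagen and matrix list, replicate 2 was the higher array in each group, controls included, and the reason was not tested. With the replicate block 9 clusters rose, 0 fell and 27 differed between the lines. Over 48 named genes the alternatives gave no change of direction. All 13 calls kept their call with 1 mean per line, the random block, median centring and without dim clusters. Of the 13, 12 did so after quantile normalization, without Pdia6 (adjusted p = 0.0508), 12 with the trend and robust fit, without Sdf2l1 (adjusted p = 0.0934), and 9 with the replicate block. Over all alternatives the adjusted p ran up to 0.405 for Sdf2l1 and 0.435 for Pdia6.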

Other observations

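The list of potassium channels, which also holds pacemaker channels, had 1 of 31 members above and 6 below on all 4 arrays, with a median of −0.03. Kcnip2, a subunit of the transient outward channel, was at −1.13 and the pacemaker channels Hcn2 and Hcn4 were at −1.14 and −0.92. The lines were uneven, since Kcnip2 was at −1.89 in ATF6β-cn and −0.36 in ATF6α-cn, a difference of −1.53 (limma, adjusted p = 0.0438), and Hcn2 at −1.71 in ATF6β-cn and −0.57 in ATF6α-cn, a difference of −1.14 (adjusted p = 0.154). Both were called in ATF6β-cn alone. Of 32 genes of calcium handling 6 were above and 0 below, with a median of 0.02, among them the calcium release channels Itpr1 at 0.82 and Itpr2 at 0.87 and the calcium pump Atp2b1 at 0.79. That count depended on scaling, with 3 above and 0 below after median centring and 4 above and 1 below after quantile normalization. None was called with both lines pooled (limma), and at an unadjusted p under 0.05 there were 0 up and 4 down of the potassium channels and 6 up and 0 down of the calcium genes.

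Of 37 antioxidant genes 4 were above and 9 below, with a median of −0.07. Cat, catalase, was at 0.63 and Gpx3, a secreted glutathione peroxidase, at 0.72, whereas Prdx5, a peroxiredoxin, was at −0.65 and Gstk1, a glutathione transferase of mitochondria and peroxisomes, at −0.99. None of these was called either (limma), and at an unadjusted p under 0.05 there were 4 up and 6 down.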
